A study of Mus musculus with 12 samples.

Results

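The potassium channel genes of the mouse hippocampus were taken by name. They are the genes of the deposited RNA tables whose symbol starts with Kcn, 97 in all, without Kcne2 and Kcnj13, which are known from the choroid plexus, and Kcnq1ot1, the antisense transcript of Kcnq1. That left 94 of the 23953 genes in the tables. The study asked how a single episode of restraint bears on hippocampal 5-hydroxymethylcytosine (5hmC), an oxidised form of methylated cytosine, and on RNA. The stress group was 6 male C57BL/6 mice, restrained for 30 min from 2 h after lights-on and then left alone in a clean cage for 1 h. The control group was 5 naive males of the same background, taken from their cages when the stress mice began restraint. Stress mice were therefore collected later in the day than control mice, and restraint and time of day cannot be told apart. Mice of both groups were anaesthetised with isoflurane, and the hippocampus was taken by micropunch. Most pools held 2 mice and 1 pool held 1 mouse, so each group had 3 pools, used for both DNA and RNA. The labels give the age as postnatal day 28 in one place and as 7 weeks in another.

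Potassium channels let potassium leave the neuron or return to it, and so set the resting potential, the shape of the action potential and the rate of firing. Voltage-gated channels are tetramers of pore subunits, some of which are silent alone and modify others. Calcium-activated channels help to end firing, inward rectifiers hold the resting potential in neurons and clear potassium through glia, and two-pore channels carry the leak. In neurons 5hmC is abundant and is known to lie in the bodies of expressed genes, which makes both the RNA and the gene body of interest here.

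Promoters of 3 members, chosen for their measurements, are shown. Kcnd2, the pore subunit of the dendritic A-type current, carried a 5hmC peak within 1 kb of its start in 5 of 6 libraries. Kcng3, a silent modifier subunit, had the highest RNA difference between stress and control of the members, and Kcnj2, a strong inward rectifier, the lowest. Each sequence is the RefSeq promoter of build GRCm38.p6, 250 bases before to 50 after the start, written 5′ to 3′ on the gene's strand with every CG in capitals, the pair in which cytosine is mostly methylated. Kcnd2 is at chr6:21215096-21215395 on the plus strand, Kcng3 at chr17:83631846-83632145 on the minus strand and Kcnj2 at chr11:111065914-111066213 on the plus strand.
Kcnd2: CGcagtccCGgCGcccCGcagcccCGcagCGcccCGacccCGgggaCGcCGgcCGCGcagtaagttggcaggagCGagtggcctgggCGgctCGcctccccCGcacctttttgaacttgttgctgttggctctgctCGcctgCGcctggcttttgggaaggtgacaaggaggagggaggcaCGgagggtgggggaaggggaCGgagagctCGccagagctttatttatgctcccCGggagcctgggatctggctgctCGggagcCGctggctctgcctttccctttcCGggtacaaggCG
Kcng3: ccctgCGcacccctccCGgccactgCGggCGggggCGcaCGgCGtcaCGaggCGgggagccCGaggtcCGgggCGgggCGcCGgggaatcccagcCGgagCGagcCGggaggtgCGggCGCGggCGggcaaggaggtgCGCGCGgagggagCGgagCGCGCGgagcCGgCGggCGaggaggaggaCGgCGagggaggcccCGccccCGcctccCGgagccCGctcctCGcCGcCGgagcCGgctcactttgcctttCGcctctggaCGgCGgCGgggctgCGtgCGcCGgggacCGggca
Kcnj2: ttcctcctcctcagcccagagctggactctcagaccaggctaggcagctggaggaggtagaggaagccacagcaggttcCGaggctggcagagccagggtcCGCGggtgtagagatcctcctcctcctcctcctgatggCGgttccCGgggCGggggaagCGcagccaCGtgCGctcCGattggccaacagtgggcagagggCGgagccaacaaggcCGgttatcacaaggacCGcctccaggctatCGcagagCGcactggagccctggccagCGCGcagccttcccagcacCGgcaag
The Kcng3 promoter held 49 CG, the Kcnd2 promoter 26 and the Kcnj2 promoter 18, and 99.0%, 83.1% and 70.3% of all 32851 RefSeq promoters held fewer. The RefSeq table held 92 promoters of 68 of the 94 members, with a median of 9 CG, against 7 over all promoters. The half-site of the glucocorticoid response element, AGAACA or TGTTCT on the other strand, was in 15 of the 92 member promoters (16.3%) and in 18.97% of all promoters. The CREB site TGACGTCA was in 0 of 92 member promoters and in 1.79% of all promoters. None of the 3 printed promoters held either motif.

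RNA was deposited as 1 table per group, in FPKM, a level per transcript length and library size, so each gene had 1 stress and 1 control value with no replicate. No test of RNA was possible, and the values describe these tables and not the conditions. For 5hmC each of the 6 libraries had its own peak list, with 15195, 27797 and 31654 peaks in stress replicates 1, 2 and 3 and 17186, 27916 and 16327 in control replicates 1, 2 and 3. Read numbers of the single libraries were not analysed here. Of the peaks, 69, 132 and 147 lay in members in the stress libraries and 75, 124 and 84 in the control libraries, or 0.436% to 0.514% of a list.

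Potassium channel genes were more often at high levels than genes at large. Averaged over both tables, 22 of the 94 members (23.4%) reached 10 FPKM, against 13.8% of all genes. Another 37 had 1 to below 10 FPKM, 18 had 0.1 to below 1 and 17 less. The summed level of the members was 615 FPKM in the stress table and 565 FPKM in the control table. Differences were taken for the 59 members that averaged 1 FPKM or more.

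**Figure D1:**
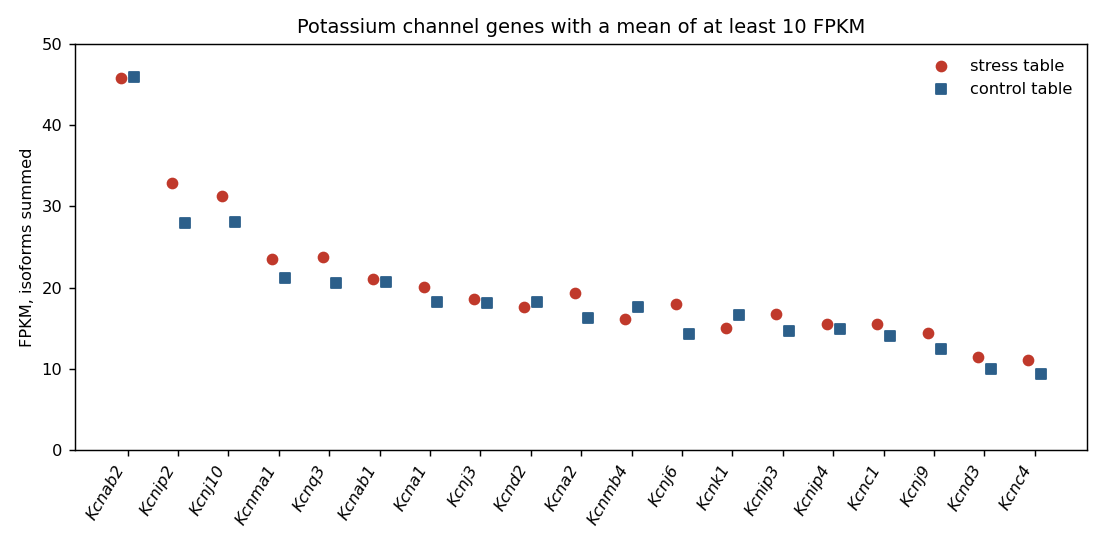
Level of 19 of the 22 potassium channel genes that averaged 10 FPKM or more over both tables, in the stress table (circles) and the control table (squares), in FPKM with isoforms summed, ordered by mean. Kcnab2 leads with 45.8 FPKM in the stress and 45.9 FPKM in the control table, and there is 1 value per group.

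Among pore subunits of voltage-gated channels, the axonal subunit Kcna1 had 20.0 FPKM in the stress and 18.2 FPKM in the control table. Its axonal partner Kcna2 had 19.3 FPKM in the stress and 16.3 FPKM in the control table. Kcnd2 had 17.6 FPKM in the stress and 18.2 FPKM in the control table, and Kcnd3, of the same A-type current, 11.4 FPKM in the stress and 9.94 FPKM in the control table. Kcnc1, which lets neurons fire fast, had 15.5 FPKM in the stress and 14.0 FPKM in the control table. Of these 5 genes, 4 were higher in the stress table and Kcnd2 was lower.

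High levels were also found among auxiliary, glial and calcium-activated genes and in the M current, which damps repeated firing. Kcnab2, a beta subunit of Kcna channels with the fold of an aldo-keto reductase, had 45.8 FPKM in the stress and 45.9 FPKM in the control table. Kcnq3, a subunit of the M channel, had 23.7 FPKM in the stress and 20.6 FPKM in the control table. Kcnip2, a calcium sensor bound to Kcnd channels, had 32.8 FPKM in the stress and 28.0 FPKM in the control table. The glial inward rectifier Kcnj10 had 31.3 FPKM in the stress and 28.0 FPKM in the control table. Kcnma1, the large-conductance calcium-activated channel, had 23.5 FPKM in the stress and 21.2 FPKM in the control table. Its leading transcript, of 5051 nt, lay on the other side, with 7.89 FPKM in the stress and 8.71 FPKM in the control table. Kcnab2 thus differed by less than 1% between the tables, while the other 4 were higher in the stress table.

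Most kept members were a little higher in the stress table, and so were most genes. The median log2((stress + 1)/(control + 1)) of the 59 was 0.14, against 0.08 over all 11071 genes kept. The members' quartiles were 0.01 and 0.23, against -0.03 and 0.19 over all genes. Of the 59, 45 (76.3%) were above 0, against 69.4% of all genes kept. On this scale 11 members (18.6%) were at least 1.2-fold higher, against 12.9% of all genes, and 2 (3.39%) at least 1.2-fold lower, against 5.25%. With all differences centred on the median of all genes, 3 members were past 1.2-fold higher and 3 lower, against 6.36% and 9.18% of all genes. At 2-fold there were 0 members in either direction, where 0.307% of all genes were higher and 0.289% lower. The scale understates changes of low genes.

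Silent modifier subunits, which change the gating of other pore subunits, held the highest values. Kcng3 had 2.26 FPKM in the stress and 1.08 FPKM in the control table, a log2 difference of 0.65. Of the 500 genes nearest in level, 99.2% had a lower difference. Kcng1 had 5.25 FPKM in the stress and 3.48 FPKM in the control table (log2 0.48, above 97.6% of genes of like level), and Kcns3 had 1.49 FPKM in the stress and 1.04 FPKM in the control table (0.29). Kcnv1 lay on the other side, with 4.10 FPKM in the stress and 5.25 FPKM in the control table (-0.29). Of the 8 kept modifier genes among 10, 3 were past 1.2-fold higher and 1 lower, with a median of 0.21. Kcnf1, another of them, had 8.33 FPKM in the stress and 6.96 FPKM in the control table (0.23).

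Inward rectifiers spanned the widest range. Kcnj2, which holds the resting potential, had 1.63 FPKM in the stress and 3.30 FPKM in the control table, a log2 difference of -0.71. Only 0.8% of the 500 genes of like level had a lower one. Kcnj4, of the same strong type, had 7.97 FPKM in the stress and 9.11 FPKM in the control table (-0.17), while Kcnj12, also strong, had 1.80 FPKM in the stress and 1.28 FPKM in the control table (0.30). Kcnj6, a G-protein-gated channel opened by inhibitory receptors, had 17.9 FPKM in the stress and 14.3 FPKM in the control table (0.31). Its partners were closer, Kcnj3 at 18.6 FPKM in the stress and 18.0 FPKM in the control table and Kcnj9 at 14.4 FPKM in the stress and 12.5 FPKM in the control table. Kcnj16, a partner of Kcnj10 in glia, had 3.69 FPKM in the stress and 2.66 FPKM in the control table (0.36). Kcnj11, the pore of the ATP-sensitive channel, had 3.94 FPKM in the stress and 3.10 FPKM in the control table (0.27). Of the 9 kept among 14, 4 were past 1.2-fold higher and 1 lower, with a median of 0.19.

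**Figure D2:**
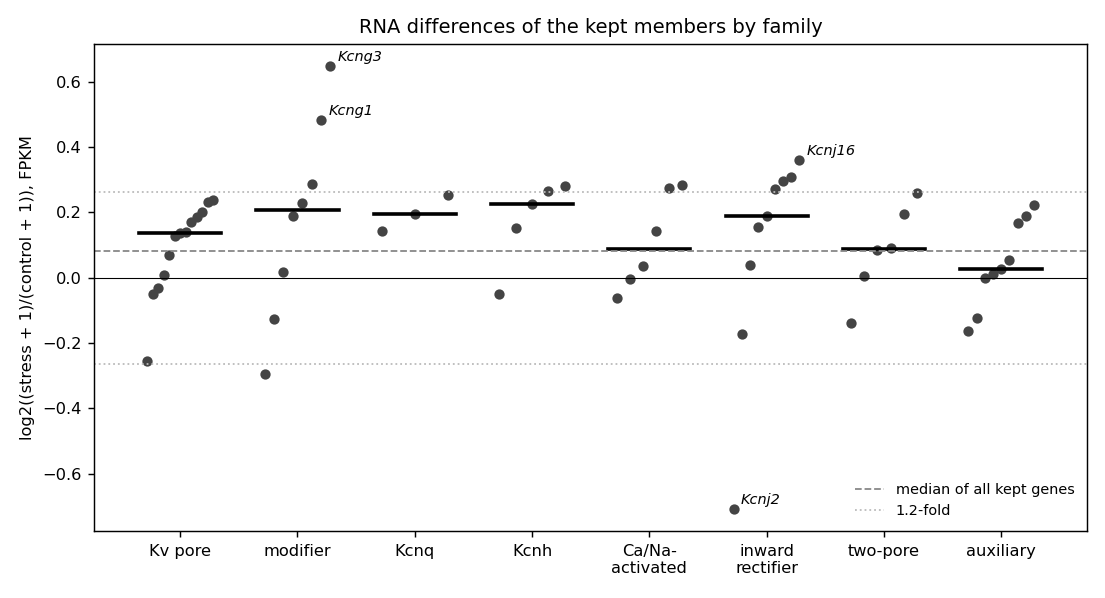
Log2((stress + 1)/(control + 1)) of the 59 kept potassium channel genes by family, with 1 point per gene, a bar at the family's median, a dashed line at the 0.08 median of all genes kept and dotted lines at 1.2-fold. Kcng3 (0.65), Kcng1 (0.48) and Kcnj16 (0.36) lie highest and Kcnj2 (-0.71) lowest.

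No member of the other families was as far out as Kcng1 or Kcnj2. Of the Kcnh channels, named after the ether-a-go-go gene, Kcnh1 had 5.68 FPKM in the stress and 4.56 FPKM in the control table (0.27). Kcnh2 had 1.52 FPKM in the stress and 1.08 FPKM in the control table (0.28), and these 2 of 5 kept members were past 1.2-fold higher. Among calcium- and sodium-activated channels, the small-conductance channels of the after-hyperpolarisation Kcnn2 (10.0 FPKM in the stress, 8.11 FPKM in the control table) and Kcnn3 (1.71 FPKM in the stress, 1.22 FPKM in the control table) were past 1.2-fold higher, 2 of 6 kept. On the scale with 1 FPKM added, 4 families held no gene past 1.2-fold in either direction. They were the 13 kept Kv pore subunits, the 3 kept Kcnq genes, the 6 kept two-pore genes and the 9 kept auxiliary genes. Their medians were 0.14, 0.20, 0.09 and 0.03, and that of the auxiliary genes lay below the 0.08 of all genes. The lowest of these were Kcna4, an A-type subunit, with 8.32 FPKM in the stress and 10.1 FPKM in the control table (-0.25), the auxiliary gene Kcne1l with 1.51 FPKM in the stress and 1.81 FPKM in the control table (-0.16), and the leak channel Kcnk1 with 15.0 FPKM in the stress and 16.6 FPKM in the control table (-0.14). As plain ratios of stress to control, Kcna4 (0.82) was past 1.2-fold lower, and some two-pore genes, such as Kcnk9 (1.24), were past it higher. On the log2 scale Kcna4 was past 1.2-fold lower with 0.1 FPKM added in place of 1 (-0.28) or with centring on all genes (-0.34). Kcnmb4, the neuronal beta subunit of the Kcnma1 channel, had 16.1 FPKM in the stress and 17.6 FPKM in the control table.

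Of the 94 members 35 were not kept. Kcna10, Kcnj1, Kcnk7, Kcnk16, Kcnmb3 and Kcnv2 were listed at 0 in both tables. Another 6 were listed at 0 in the stress table alone, with control values that reached at most the 0.128 FPKM of Kcnn4, and they were Kcna7, Kcne1, Kcnh6, Kcnj15, Kcnk15 and Kcnn4. Kcnq1, known from heart and inner ear, had 1e-10 FPKM in the stress and 0.109 FPKM in the control table. The antisense genes Kcnd3os and Kcnmb4os1 had 0.326 and 0.344 FPKM in the stress table and 0.0712 FPKM and 1e-06 FPKM in the control table. They overlap Kcnd3 and Kcnmb4, and the libraries are not stated to keep strand, so reads of a gene and its antisense partner cannot be told apart. Kcnrg, which interferes with the assembly of voltage-gated channels, had 0.656 FPKM in the stress and 0.712 FPKM in the control table.

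Isoforms were listed for 28 members, 184 transcripts over all members. The most abundant transcript differed between the tables in 4 kept members. For Kcnh1 the 7062 nt transcript had 3.70 FPKM in the stress and 1.97 FPKM in the control table, and the 7143 nt transcript 1.99 FPKM in the stress and 2.58 FPKM in the control table. For Kcns3 the 2933 nt transcript had 1.49 FPKM in the stress and 0.403 FPKM in the control table, while the 2870 nt transcript had 2.14e-05 FPKM in the stress and 0.637 FPKM in the control table. For Kcnip4, a calcium sensor of Kcnd channels, the 1997 nt transcript took 44.4% of the gene in the stress and 30.0% in the control table, where the 2099 nt transcript led with 34.1%. For Kcnab1, a beta subunit like Kcnab2, a 2851 nt transcript took 51.1% in the stress and 44.8% in the control table. Kcne3 and Kcnh8 also differed in their leading transcript, at less than 1 FPKM in both tables. Transcripts that share most of their exons are separated only by estimation. The interval deposited beside each transcript's FPKM was not used as an error here, since 7 member transcripts had a value outside it in at least 1 table.

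Genes that work with the channels differed as little. Of 22 partner genes 16 were kept, with a median of 0.05, 2 past 1.2-fold higher and 1 lower. The higher ones were Cntnap2, which clusters Kcna channels along the axon (13.4 FPKM in the stress, 10.7 FPKM in the control table), and Adam22, a receptor of the Kcna regulator Lgi1 (23.5 FPKM in the stress, 19.4 FPKM in the control table). The lower one was Dpp10, a partner of Kcnd channels, with 3.97 FPKM in the stress and 5.58 FPKM in the control table. Its relative Dpp6 had 44.6 FPKM in the stress and 37.1 FPKM in the control table. Of 11 genes of the sodium pump and of chloride and potassium cotransport 10 were kept, 0 past 1.2-fold, with a median of 0.12.

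Markers of other cell types differed between the tables beside these values. All 6 kept choroid plexus markers of 11 were past 1.2-fold lower in the stress table, with 65.8 FPKM summed over the list in the stress and 236 FPKM in the control table. Kcne2 (0.525 FPKM in the stress, 2.28 FPKM in the control table) and Kcnj13 (1.28 FPKM in the stress, 3.66 FPKM in the control table), left out above, lay on the same side. Of 7 thalamus markers 4 were past 1.2-fold higher, with sums of 34.7 FPKM in the stress and 26.9 FPKM in the control table. The 9 astrocyte markers, among whose cells Kcnj10 and Kcnj16 are known, had 2 past 1.2-fold higher and 1 lower, with sums of 511 FPKM in the stress and 444 FPKM in the control table. Oligodendrocyte markers summed to 1396 FPKM in the stress and 1594 FPKM in the control table, with 0 of 11 past 1.2-fold higher and 5 lower. The 7 endothelial and mural markers summed to 33.2 FPKM in the stress and 38.3 FPKM in the control table, and the 6 neuron markers to 937 FPKM in the stress and 844 FPKM in the control table. Of ependyma markers 2 of 3 kept were past 1.2-fold lower and 0 higher, of 7 microglia markers 2 were higher and 1 lower, and of 6 markers of hippocampal fields 1 was higher and 1 lower. The part of these differences in the members' values was not tested, and fewer cells of a type and less RNA per cell cannot be told apart in such tissue.

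The gene bodies of the members held 631 peaks over the 6 libraries, in 9652 kb. A peak was counted for a gene when its centre lay between the gene's first and last annotated base. For each member the peaks were set against the mean of the 200 other genes nearest in body length. Over all members the ratio to like-length genes was 0.91 ± 0.01 in stress and 0.89 ± 0.08 in control libraries (SD, n = 3 each). With the full lists it was below 1 in every library. Long and short members differed. The 17 members of at least 200 kb had ratios of 0.64 ± 0.03 in stress and 0.70 ± 0.12 in control libraries, from 0.62 to 0.84. The 19 members of 50 to below 200 kb had 1.26 ± 0.12 in stress and 1.24 ± 0.09 in control libraries, and the 33 of 10 to below 50 kb had 1.44 ± 0.26 in stress and 1.22 ± 0.22 in control libraries. In these 2 classes every library was above 1. The 25 members under 10 kb had 1.55 ± 0.34 in stress and 1.29 ± 0.64 in control libraries, with 1 control library at 0.55. These ratios rest on 3, 8 and 10 peaks in stress and 1, 6 and 3 in control libraries. Of the 25, 13 held no peak, and 11 lay above the mean of like-length genes and 14 below. A comparison added after the values were seen took only members and like-length genes averaging 1 FPKM or more. The class of at least 200 kb then had 0.59 ± 0.05 in stress and 0.69 ± 0.11 in control libraries. The class of 50 to below 200 kb had 1.08 ± 0.03 in stress and 1.05 ± 0.03 in control libraries. That of 10 to below 50 kb had 1.62 ± 0.32 in stress and 1.30 ± 0.22 in control libraries. Members under 10 kb had 1.55 ± 0.02 in stress and 1.07 ± 0.41 in control libraries.

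**Figure D3:**
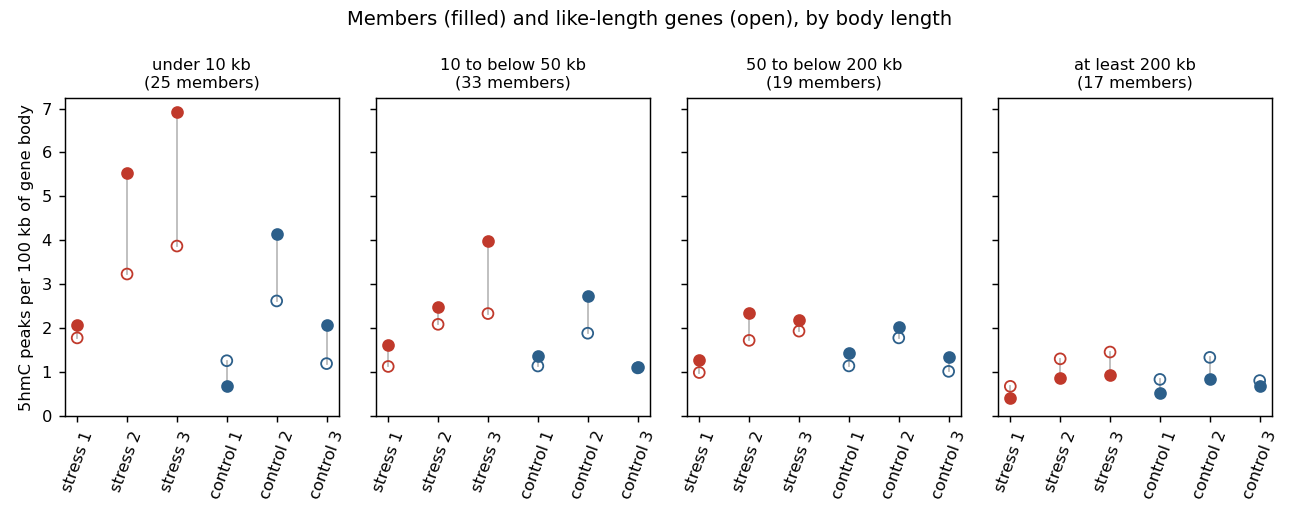
5hmC peaks per 100 kb of gene body in potassium channel genes (filled) and in the like-length genes (open), for each of the 6 libraries and 4 classes of body length. Members of at least 200 kb lie below their like-length genes in all 6 libraries, and members of 10 to below 200 kb at or above them.

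Families also differed in density when the peaks of their members were summed, so that single genes can carry a ratio. Two-pore channels had 1.71 ± 0.28 times the peaks of like-length genes in stress and 1.50 ± 0.17 times in control libraries. Of their 14 members 7 lay above the mean of like-length genes and 7 below, and 5 held no peak. Kcnh channels had 0.28 ± 0.18 in stress and 0.55 ± 0.12 in control libraries, and auxiliary genes 0.80 ± 0.07 in stress and 0.72 ± 0.23 in control libraries. Of 8 Kcnh members 3 lay above and 5 below, and of 15 auxiliary members 6 above and 9 below. Modifier subunits had 2.13 ± 0.36 in stress libraries and 1.32 ± 1.12 in control libraries, where the 3 libraries ran from 0.36 to 2.55. Of 10 modifier members 6 lay above and 4 below. Within the 69 members of at least 10 kb the ratio had a Spearman correlation of 0.11 with mean FPKM across genes, given as a description, since all genes share the same libraries.

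Among the long members with few peaks, Kcnh7, a 481 kb gene of the ether-a-go-go type at 5.98 FPKM, held 0, 0 and 1 peaks in stress and 0, 0 and 1 in control libraries. Like-length genes held 30.8 over the 6 libraries on average, and 12.0% of them held fewer than Kcnh7. The 364 kb sodium-activated channel Kcnt2 held 0, 0 and 1 peaks in stress and 1, 0 and 0 in control libraries, and the 158 kb Kcnj3, at 18.3 FPKM, 1 peak in all, in a control library. Kcnh8, of 303 kb, was among 8 members of at least 10 kb without a peak, and 10.5% of its like-length genes had none either. The other 7 were Kcna10, Kcnd1, Kcnj5, Kcnk6, Kcnk9, Kcnmb1 and Kcns3. Another 13 members without a peak were under 10 kb.

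The highest ratios among members of at least 10 kb were found in genes of 13.4 kb (Kcna2) to 55.7 kb (Kcnmb4). Kcne1, an auxiliary subunit of Kcnq1, had the highest ratio, 3.19, with 0, 1 and 1 peaks in stress and 1, 1 and 1 in control libraries, although its RNA was listed at 0 in the stress table and at 0.0211 FPKM in the control table. Other high ratios were those of Kcnh2 (2.76), Kcng3 (2.75), Kcnmb4 (2.64) and Kcna2 (2.61). Kcng3 held 2, 4 and 1 peaks in stress and 2, 3 and 0 in control libraries, and 93.0% of like-length genes held fewer. None of these peaks of Kcng3 lay within 1 kb of its start in build mm9, the build of the peaks. That start was not set against the start of the promoter printed above, which is in another build. Kcnmb4 held 1, 3 and 3 peaks in stress and 2, 2 and 1 in control libraries. The mechanically gated leak channel Kcnk2, of 194 kb, held 4, 7 and 9 peaks in stress and 5, 7 and 2 in control libraries, where 96.0% of like-length genes held fewer. Under 10 kb, the 3.64 kb Kcnj11 stood out with 1 peak in each library, where 73.5% of like-length genes had none in any.

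**Figure D4:**
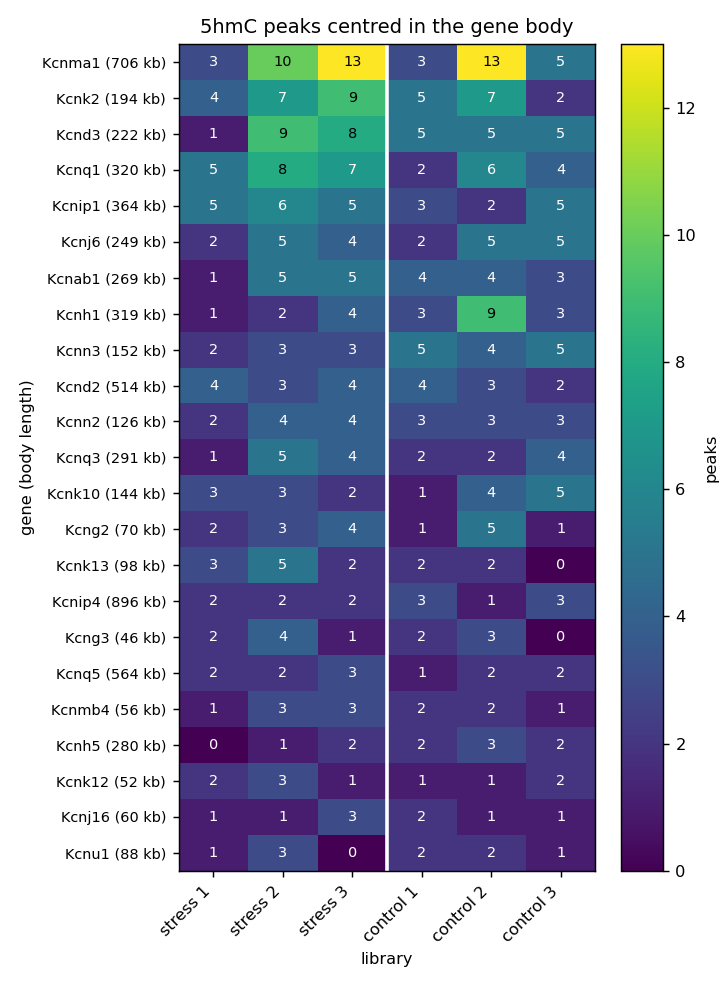
Number of 5hmC peaks centred in the gene body of 23 potassium channel genes in each stress library (left of the white line) and control library (right), with body length beside the name and rows ordered by total. Kcnma1 has the most, from 3 to 13 per library, and Kcnn3 has fewer in each stress than in any control library.

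Per kb of sequence, members held more peaks on exons and fewer in introns than other genes did. Per 100 kb of intron, members held 0.57, 1.08 and 1.19 peaks in stress and 0.65, 1.02 and 0.82 in control libraries, against 0.81, 1.48 and 1.68 in stress and 0.96, 1.50 and 0.90 in control libraries for other genes. Per 100 kb of exon, members held 4.91, 7.86 and 9.17 in stress and 3.28, 6.88 and 2.29 in control libraries, against 2.88, 4.96 and 5.74 in stress and 2.29, 4.29 and 2.15 in control libraries for other genes. Members were thus lower in introns and higher on exons in each of the 6 libraries. These other genes were not chosen for length, and exons made up 3.17% of the members' length and 5.61% of that of other genes. Exons took 19.7% ± 1.78 of the members' peaks in stress and 12.9% ± 4.39 in control libraries (SD, n = 3 each), without overlap of the groups. Other genes had 16.9% ± 0.41 in stress and 13.2% ± 1.2 in control libraries, also without overlap. Neither difference was tested here.

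Within 1 kb of a start, 4, 11 and 15 of the 94 members had a peak in the stress libraries and 7, 10 and 3 in the control libraries. The share over all genes is not given here, and the highest counts came from the longest lists. Kcnj11 had such a peak in all 6 libraries. Kcnd2 and Kcnj16 had one in 3 of 3 stress and 2 of 3 control libraries, and Kcnip4 in 2 of 3 of each. The Kcnd2 region, chr6:21165917-21167637 of build mm9 on the gene's plus strand, was merged from these peaks and ran across the start and the first exon. In stress replicate 1 and control replicate 1 the peak itself began just after the start. By the authors' scores its peaks ranked at percentile 98.7, 99.9 and 99.5 of the stress lists and 97.9 and 99.5 of the lists of control replicates 1 and 2, and no peak was listed in control replicate 3. The Kcnd2 promoter printed above, with its 26 CG, was matched by symbol and is in the other build. Its start was not set against the mm9 start used for the peaks. Whether these peaks reach the printed sequence is therefore not known.

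**Figure D5:**
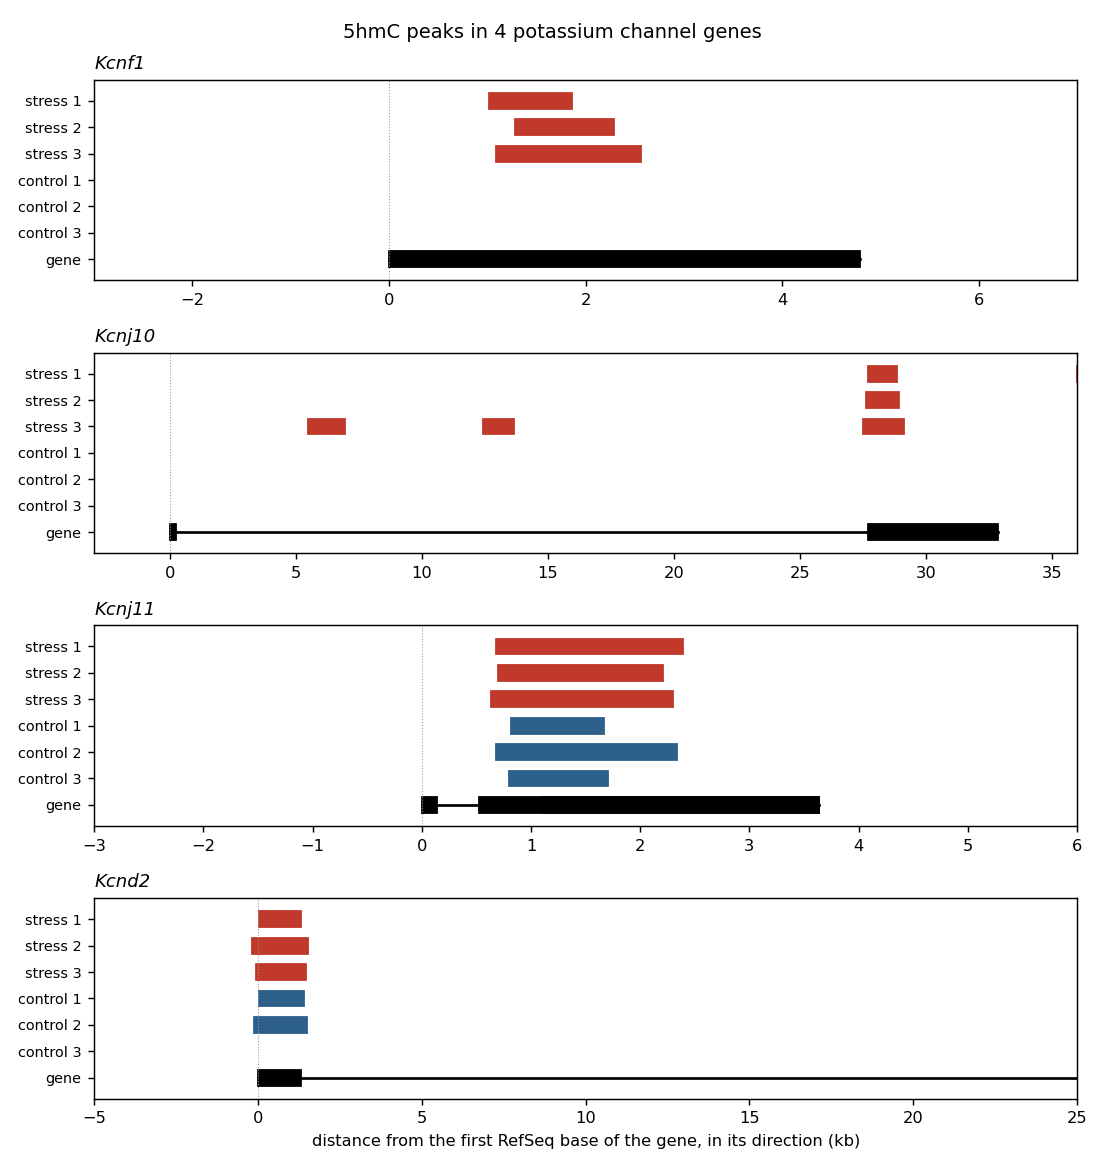
5hmC peaks in each stress (upper) and control (lower) library along Kcnf1, Kcnj10, Kcnj11 and the first 25 kb of Kcnd2, by distance in kb from the gene's first annotated base in the direction of transcription, with exons as black boxes. Inside the gene bodies, peaks of Kcnf1 and Kcnj10 are listed in stress libraries alone and those of Kcnj11 in all 6, and that at the start of Kcnd2 in 5.

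Merging the 6 lists gave 348 regions in member bodies of 43572 in all gene bodies. Of the members' regions 56.6% were found in a single library, against 55.3% over all genes. The 3 regions found in all 6 libraries (0.862%, against 1.8% over all genes) lay in an intron of Kcnd3 (chr3:105392493-105394765), 103 bp from the nearest start of Kcnj11 and on its exon (chr7:53353742-53355504) and in an intron of Kcnq3 (chr15:66068731-66070028), all in mm9. Regions in all 3 stress and no control library were 3 (0.862%, against 1.3% over all genes). They lay on the exon of Kcnf1 (chr12:17181126-17182681), on the last exon of Kcnj10 (chr1:174298859-174300470) and in an intron of Kcnq1 (chr7:150560259-150562651). The 1 region in all 3 control and no stress library (0.287%, against 0.36%) lay in an intron of Kcnj6 (chr16:94971800-94973825). In Kcnf1 the peaks ranked at percentile 3.65, 86.9 and 99.3 of the stress lists by score, and in Kcnj10 at 75.9, 79.0 and 46.1. A library with no listed peak may hold 5hmC there below the lowest listed score of 50. With 1 library left out, and so with a looser rule for its group, stress-only regions numbered 13, 6 and 6 without stress replicate 1, 2 or 3 and 3, 12 and 5 without control replicate 1, 2 or 3. Control-only regions then numbered 1, 2 and 2 without stress replicate 1, 2 or 3 and 12, 2 and 3 without control replicate 1, 2 or 3. These are counts among 302 to 333 member regions. Over all gene bodies, stress-only regions were then 5.68%, 3.02% and 2.81% without stress replicate 1, 2 or 3 and 1.78%, 3.32% and 1.75% without control replicate 1, 2 or 3. Control-only regions were 0.509%, 0.745% and 0.894% without stress replicate 1, 2 or 3 and 1.71%, 1.33% and 1.62% without control replicate 1, 2 or 3.

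Peak numbers of stress and control libraries were compared gene by gene with limma, after scaling to the total of each list. Of 7939 genes with at least 3 peaks, 0 passed an adjusted p of 0.05 (0.0%), and 621 (7.82%) had an unadjusted p under 0.05. Of 54 members tested, 0 passed and 5 had an unadjusted p under 0.05, each with an adjusted p of 0.528 over all genes (limma, Benjamini-Hochberg). The median log2 difference was 0.14 over these 54 members and 0.10 over all genes tested. Kcnj10 held 1, 1 and 3 peaks in stress and 0, 0 and 0 in control libraries, a log2 difference of 1.93 (SE 0.69). Kcnf1 held 1, 1 and 1 in stress and 0, 0 and 0 in control libraries (1.56, SE 0.66), all in its stress-only region. Kcnj10 and Kcnf1 reached the minimum of 3 peaks through stress libraries alone, so their unadjusted p-values are no support for a difference. Their log2 differences also hang on the added constant. With 0.1 in place of 0.5 they were 3.89 for Kcnj10 and 3.41 for Kcnf1. Kcnh1 held 1, 2 and 4 peaks in stress and 3, 9 and 3 in control libraries (-1.17, SE 0.43). Kcnh5, of the same type, held 0, 1 and 2 in stress and 2, 3 and 2 in control libraries (-1.52, SE 0.61). Kcnn3 held 2, 3 and 3 peaks in stress and 5, 4 and 5 in control libraries (-0.95, SE 0.40). The numbers of Kcnj10, Kcnf1 and Kcnn3 did not overlap between the groups even before scaling.

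After scaling, the stress and control libraries did not overlap for 5 of the 49 members of at least 10 kb with at least 3 peaks. Kcnj10 and Kcnab2 (1, 1 and 2 peaks in stress, 0, 1 and 0 in control libraries) were higher in stress, 4.08% of members against 7.31% of all such genes. Kcnj10 reached 3 peaks through stress libraries alone. Kcnab2 had 1 peak in both stress replicate 2 and control replicate 2, and scaling alone set these apart, at 0.816 and 0.812. Kcnh1, Kcnh5 and Kcnn3 were lower, 6.12% against 3.75%. For each the exact two-sided permutation p was 0.1, the smallest that 3 against 3 libraries allow. It sets the group difference against differences among libraries, which include list length as well as pools. With unscaled numbers, tried after the values were seen, Kcnj10 (higher) and Kcnn3 (lower) alone did not overlap, where 3.65% of all such genes were higher and 0.97% lower. With each list shortened to an equal number of its top-scoring peaks it was Kcnq1, higher in stress, and Kcnh1, lower, where 2.88% of all such genes were higher and 1.97% lower. Kcnq1 held 5, 8 and 7 peaks in stress and 2, 6 and 4 in control libraries, of which 1, 2 and 1 in stress and 1, 1 and 0 in control libraries lay in the antisense gene Kcnq1ot1. The gene with most peaks, Kcnma1, held 3, 10 and 13 in stress and 3, 13 and 5 in control libraries, the most in the 3 longest lists, with a log2 difference of 0.07 (SE 0.38; adjusted p = 0.945, limma).

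RNA and peaks of these genes can be set side by side. Kcnj10, with more peaks in stress, had 31.3 FPKM in the stress and 28.0 FPKM in the control table, and Kcnf1 had 8.33 FPKM in the stress and 6.96 FPKM in the control table. Kcnh1, Kcnh5 and Kcnn3, with fewer peaks in stress, had log2 RNA differences of 0.27, 0.15 and 0.28. Kcnab2 had equal RNA to within 1%. The members with the largest RNA differences, Kcng3 and Kcnj2, had scaled peak numbers that overlapped between the groups, Kcnj2 with 0, 0 and 1 peaks in stress and 1, 0 and 1 in control libraries.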

How the data were processed

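The submitters' processing notes name mm9, Bowtie 0.12.9, edgeR, TopHat 1.0.12, Cufflinks 2.1.1 and Cuffdiff 2.1.1. For each 5hmC library the authors deposited a peak list with a score per peak, whose caller version and input the sources used here do not give. Scores only ranked peaks within a list. For RNA the authors deposited 1 FPKM table per group; how 3 libraries became 1 table is not given. Isoform FPKM were summed per gene. A pseudocount of 1 and a minimum mean of 1 FPKM were used. Chromosomes 1 to 19, X and Y were used. Overlapping peaks (1 bp) were merged into regions. A promoter reached 1 kb from a start, and exons came next. limma 3.58.1 (trend) tested log2(scaled peaks + 0.5), and the step was tested on simulated data. Named members were, by rule, the 6 extremes of RNA difference, level and density ratio, and those with group-specific or shared regions, a leading transcript that differed or a value of 0 in 1 table. Kcnk2, Kcnt2, Kcnj3, Kcnh7, other family members and partners were added after their values were seen. Members and lists were chosen with earlier results of these data known. Replicate numbers did not pair the libraries. Some members are not reported here by name.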

Additional observations from a re-analysis of the deposited data

How the results depend on the processing

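RNA results moved with the filter and centring. The members' median log2 difference of 0.14 was 0.087 with no filter on low values and 0.060 when centred on all genes. With no filter, 15 of 88 members were past 1.2-fold higher and 4 lower, against 10.2% and 5.62% of all genes. When centred, 3 of 59 were higher and 3 lower, against 6.36% and 9.18% of all genes. The median was 0.16 when 0.1 FPKM was added in place of 1, and 0.15 from the leading transcript alone. The ratio of peaks to like-length genes in stress libraries was 0.965 ± 0.103 (SD, n = 3) with equal numbers of top-scoring peaks. This ratio was 0.956 ± 0.066 with the higher-scoring 50% of each list and 0.832 ± 0.024 for expressed genes only. With 1 library left out it ran from 0.906 to 0.918 in stress and from 0.848 to 0.923 in control libraries. Stress-only regions numbered 1 of 179 member regions in the higher-scoring 50%, against 1.30% over all gene bodies. Control-only regions numbered 2 of 242 member regions with equal numbers of peaks, against 0.653% over all gene bodies. With 1 library left out the numbers were 3 to 13 stress-only and 1 to 12 control-only. For these the shares over all gene bodies are given above. With no scaling limma called 292 genes and with equal numbers of peaks 277, 1 member each time (Kcnf1, adjusted p = 0.00249 and 0.000476), but 199 and 206 of these genes had identical numbers within both groups, so the spread was 0. With any 1 library left out limma called 0 genes, with 473 to 977 at an unadjusted p under 0.05. Kcnn3 turned to a log2 difference of 0.0088 in the higher-scoring 50%, adjusted p = 0.996. With the replicate number as a block limma called 0 genes, 546 with unadjusted p under 0.05. Deviations of same-numbered libraries correlated at 0.03, -0.01 and 0.01, so the numbers give no pairing. Of 71 other RNA values of 18 members 69 kept their sign, all but Kcnab2 and Kcnma1 from the leading transcript alone, and of 88 5hmC values of 6 members 87, all but Kcnn3. Many of these signs could not change. Neither another pseudocount nor a dropped filter can turn an RNA sign, and Kcnj10 and Kcnf1 had no control peak in the body. The counts are thus no measure of robustness. The length of the lists and the missing read depth limit every 5hmC number, and the single RNA table per group limits every FPKM.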
